A study of Rattus norvegicus with 4 samples.

Results

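The cytosolic ribosomal proteins are described here in rat soleus muscle after nerve section and on a genistein diet. Members were the probe sets annotated to exactly 1 gene whose symbol is Rpl or Rps followed by a digit, or Rplp0, Rplp1, Rplp2 or Rpsa, without the Rps6k kinases. This gave 50 genes with 57 probe sets, of 14217 genes with 20826 such probe sets on the array. Of the 50, 34 belong by symbol to the large subunit and 16 to the small subunit. Members whose symbol marks a paralog by an added l, or a pseudogene, numbered 7, namely Rpl26l1, Rpl37-ps2, Rpl39l1, Rpl3l, Rpl7l1, Rps27l and Rps4x-ps1. A further 36 probe sets carry several gene symbols, at least 1 of them fitting the rule, and are given below as a group without names. The genes Rplp1, Rplp2, Rps19, Rps27, Rps27a, Rps4x, Rpl10, Rpl10l, Rpl22l1, Rpl32, Rpl36a, Rpl36al and Rpl39l had no probe set of their own under this rule and were not analysed here.

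Male Wistar rats ate an AIN-93G diet with 0.5 g genistein per kg, or the control diet with none, in which corn oil replaced soybean oil, for 24 days from 10 weeks of age, and the samples are labelled as 14 weeks old. Genistein is a soy isoflavone that binds oestrogen receptors, and the study asked whether it alters the muscle loss that follows denervation. On day 14 the left sciatic nerve was cut and the right leg of the same rat had sham surgery, and soleus was taken 10 days later. RNA of 8 rats was pooled for each of 4 arrays, which are genistein denervated, genistein sham, control denervated and control sham. There is 1 array per group, so no spread between animals can be given and no test was made. A pool of 8 rats gives 1 value whose error is unknown. Titles were used for the groups because another label names the opposite surgery for 2 of the 4 arrays. All 8 listed denervation markers were higher on the arrays titled denervated, with sums of 62482.6 and 68059.5 units against 9120.0 and 11081.2 on the arrays titled sham.

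The ribosome joins a small subunit, which reads the mRNA, to a large subunit, which forms the peptide bond and holds the exit tunnel for the new chain. Mammalian mRNAs of ribosomal proteins begin with a terminal oligopyrimidine tract, through which the mTOR pathway controls their translation, so their mRNA level and their protein output can differ. Striated muscle is unusual in having Rpl3l, a paralog of the large subunit protein Rpl3 that is made mainly in skeletal muscle and heart. Nerve section takes away muscle activity, and the fibres then shrink as protein breakdown exceeds synthesis.

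The start regions of the genes bear on this shared tract, and those of 6 members are printed to show where pyrimidine runs lie around the start. Each has 15 bases before the annotated start and 15 from it on, 5′ to 3′ on the gene's strand, from RefSeq with assembly GRCr8, and capitals mark a run of 6 or more pyrimidines that touches the 10 bases on either side of the start. Rpl35a (chr11:81235007-81235036, minus strand), Rps3a (chr2:173827028-173827057, minus strand), Rplp0 (chr12:46718376-46718405, minus strand) and Rpl23 (chr10:83272170-83272199, minus strand) each hold such a run. Rpl3 (chr7:113507976-113508005, minus strand) and Rpl3l (chr10:14258431-14258460, plus strand) are the paralog pair whose signals differed most.
Rpl35a: gcgggtcttgCCTTCCTCTTTCCgccatct
Rps3a: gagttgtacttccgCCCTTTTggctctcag
Rplp0: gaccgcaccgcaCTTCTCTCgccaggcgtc
Rpl23: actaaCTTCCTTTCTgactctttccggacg
Rpl3: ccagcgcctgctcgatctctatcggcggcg
Rpl3l: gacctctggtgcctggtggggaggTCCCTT
Of the 41 members with such a window, 30 (73.2%) held a pyrimidine run of that length, against 27.6% of the 19005 protein-coding genes in the RefSeq table. A purine run of the same length was found in 12.2% of the members and in 31.5% of all genes. Rpl3 had no pyrimidine run of 6, but its longest, of 5 bases, begins at the annotated start. The run of Rpl3l lies downstream of the annotated start rather than across it, and that of Rpl23 ends just before it. A match is a description of these letters and depends on where the start is annotated.

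Rpl3 and Rpl3l differed most from the other members after denervation, and in opposite directions. They and 3 further members, Rpl37-ps2, Rps27l and Rpl23, were the 5 of 44 members that kept 1 direction on both diets under all 4 scalings of the arrays tried. Scaling on added control RNAs, described below, raised the ratios of denervated over sham on both diets. A ratio already above 0, as in all 5 but Rpl3l, could not change sign under it. Rpl3, which reaches into the peptidyl transferase centre of the large subunit, had 16336.9 units on the genistein denervated array and 7201.3 on the genistein sham array, and 15619.1 on the control denervated array and 8011.6 on the control sham array. Both denervated arrays lay above both sham arrays. The ratio of denervated over sham was 2.27-fold (log2 1.18) on genistein and 1.95-fold (log2 0.96) on the control diet. Rpl3l had 4687.8 units on the genistein denervated array and 16016.7 on the genistein sham array, and 6082.2 on the control denervated array and 17434.0 on the control sham array. Both denervated arrays lay below both sham arrays, by 3.42-fold on genistein (log2 -1.77) and 2.87-fold on the control diet (log2 -1.52). The ratio of Rpl3 exceeded that of Rpl3l by 2.95 log2 units on genistein (7.75-fold) and by 2.48 on the control diet (5.59-fold), a quantity that multiplying an array by a factor does not change. Among all measured genes, Rpl3l ranked 154 from the lowest of 10810 on genistein and 268 from the lowest of 10755 on the control diet, and Rpl3 ranked 373 from the highest on genistein and 577 on the control diet. Signals of different probe sets cannot be set against each other, so these data do not say which of the paralogs was more abundant. In bulk muscle, fewer cells of a type and less RNA per cell cannot be told apart.

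A second, dimmer probe set of Rpl3 gave 974.3 units on the genistein denervated array and 609.3 on the genistein sham array, and 505.9 on the control denervated array and 663.8 on the control sham array. Its ratio was thus log2 0.68 on genistein and -0.39 on the control diet, so the Rpl3 probe sets differed in direction on the control diet. With the mean of its probe sets, the control diet ratio of Rpl3 was 0.29. The suffix of the dimmer one marks probes that may also match other transcripts. The probe set of Rpl3l has a suffix for transcript variants, and the gene has no other.

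**Figure D1:**
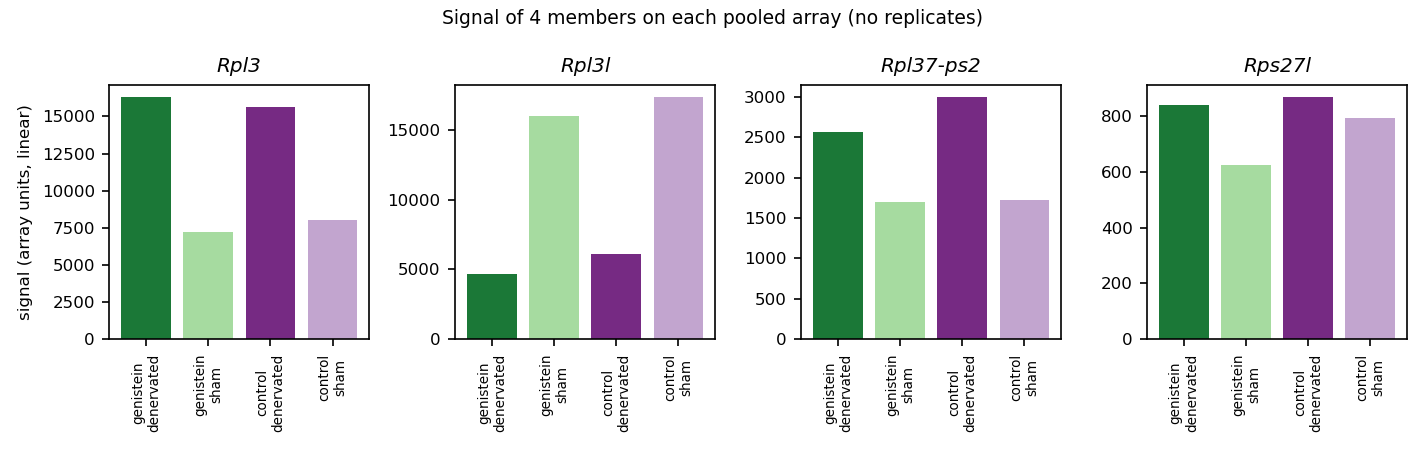
Signal in linear array units of Rpl3, Rpl3l, Rpl37-ps2 and Rps27l on each of the 4 pooled arrays, 1 bar per array and no error bars because there are no replicates. Rpl3 is highest on the denervated arrays (16336.9 and 15619.1) and Rpl3l on the sham arrays (16016.7 and 17434.0), and each panel has its own scale.

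The 250 bases upstream of this pair are printed because their signals differed in opposite directions. In Rpl3l (chr10:14258196-14258445, plus strand) the capitals mark the letters CANNTG, the E-box bound by myogenic factors among others, and in Rpl3 (chr7:113507991-113508240, minus strand) there is none. CANNTG reads the same on both strands.
Rpl3l: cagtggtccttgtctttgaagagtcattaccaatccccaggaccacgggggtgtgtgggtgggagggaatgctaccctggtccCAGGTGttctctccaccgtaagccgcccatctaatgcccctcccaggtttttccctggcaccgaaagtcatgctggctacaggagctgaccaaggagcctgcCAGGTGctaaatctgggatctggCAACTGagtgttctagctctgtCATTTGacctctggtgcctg
Rpl3: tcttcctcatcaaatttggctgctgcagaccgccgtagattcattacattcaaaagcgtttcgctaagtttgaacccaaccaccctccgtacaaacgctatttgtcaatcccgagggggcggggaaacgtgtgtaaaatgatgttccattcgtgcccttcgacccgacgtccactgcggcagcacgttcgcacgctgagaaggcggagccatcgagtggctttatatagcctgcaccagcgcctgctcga
Rpl3l holds 4 matches, and 2.67% of the 19005 genes hold at least 4 in a window of this length. At least 1 match is held by 46.3% of the 41 members with a window and by 62.8% of all genes. Having none, like Rpl3, is thus common among members. Base composition was close, with 56.4% G and C for Rpl3l and 53.6% for Rpl3. Whether any of these matches is bound was not measured.

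The other members stayed close together, and their common direction depends on how the arrays are scaled. In the signals as deposited, the median log2 ratio of denervated over sham was -0.22 on genistein (0.859-fold, 48 members measured) and -0.20 on the control diet (0.874-fold, 46 members). All measured genes had medians of 0.02 and 0.00. On genistein 40 of 48 members were lower in denervated soleus, where 48.3% of all genes were lower, and 8 were higher, where 51.7% of all genes were. On the control diet 38 of 46 were lower, where 50.2% of all genes were, and 8 were higher, where 49.8% were. Hybridisation controls, bacterial and phage RNAs added in fixed amount, were themselves lower on the denervated arrays. Their mean log2 ratio over 18 rows was -0.48 on genistein and -0.37 on the control diet. With arrays scaled on the mean of these controls the members' median was 0.26 on genistein and 0.17 on the control diet, and with quantile normalization it was 0.28 and 0.24. Scaling on the controls moved the median of all genes to 0.48 and 0.35, and members then lay 0.22 and 0.18 below it, as they lay 0.24 and 0.19 below it in the deposited signals. Under quantile normalization members lay 0.29 and 0.24 above the median of all genes, so neither the sign nor the position relative to other genes is settled. The number of members below 0 was then 6 of 48 on genistein and 4 of 46 on the control diet. The ratios of Rpl3 and Rpl3l kept their directions under all 3 other scalings, which include scaling on the array median, and 39 of 44 members changed sign in at least 1 scaling on at least 1 diet. Scaling on the controls raised the ratios, so it could have turned that of Rpl3l but not that of Rpl3.

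**Figure D2:**
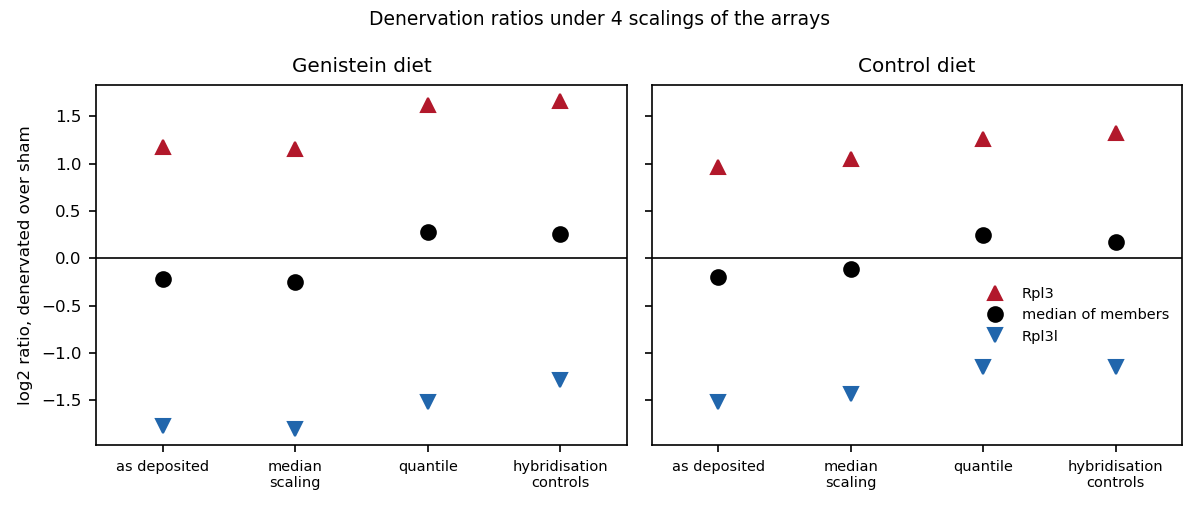
Log2 ratio of denervated over sham soleus under 4 scalings of the arrays, with the genistein diet on the left and the control diet on the right, for Rpl3 (triangles up), the median of all members (circles) and Rpl3l (triangles down). The median of members lies below 0 as deposited (-0.22 and -0.20) and above 0 after quantile normalization (0.28 and 0.24), while Rpl3 stays above 0 and Rpl3l below it.

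These members are among the brightest features of the array. Of the 50, 37 had a geometric mean signal of at least 10000 units, 44 were above the floor of 78.9 units on all 4 arrays, 4 were above it on some (Rpl28, Rpl39l1, Rps13 and Rps4y2) and 2 on none (Rpl30 and Rps4x-ps1). The floor is the 40th percentile of all signals, and lower values were raised to it. Rpl28, Rpl30 and Rps13 were each read from 1 probe set, and a dim probe set need not mean little mRNA. For Rpl14, 1 probe set had 9.8 to 60.2 units and the other 8134.1 to 9991.6 units over the 4 arrays. Among genes with a mean of at least 10000 units, the 37 members had medians of -0.22 on genistein and -0.20 on the control diet, and the 228 other genes had -0.67 and -0.59. The bright members thus had higher ratios than other bright genes, although lower ones than the median gene in the deposited signals. Under quantile normalization the 228 other bright genes had medians of -0.15 on genistein and -0.14 on the control diet, and under scaling on the controls -0.19 and -0.22, below the members' medians there too. How much brightness sets these ratios was not tested. Members held 2.72% of the summed signal on the genistein denervated array and 2.82% on the genistein sham array, and 2.97% on the control denervated array and 3.03% on the control sham array.

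At a fold of 1.2 in the deposited signals, 15 of the 48 members were lower and 4 higher in denervated soleus on genistein, beside 29.4% and 31.9% of all genes. On the control diet 12 of 46 were lower and 3 higher, beside 32% and 31.3% of all genes. The shares lower are close to the background, and those higher are below it. At 2-fold, Rpl3 was higher and Rpl3l lower on genistein, against 4.96% and 6.57% of all genes, and on the control diet Rpl3l and Rps4y2 were lower and none was higher, against 7.63% and 5.04%. Rps4y2, a paralog of Rps4x, is dim. It had 106.5 units on the genistein denervated array and 139.5 on the genistein sham array, and 68.0, under the floor, on the control denervated array and 159.6 on the control sham array, so its control diet ratio is at least 2.02-fold lower.

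Both subunits had similar ratios in the deposited signals. Large subunit members had medians of -0.20 on genistein and -0.19 on the control diet, and small subunit members -0.26 and -0.21. The spread among the 44 members above the floor on all arrays was 0.38 (SD of the log2 ratios) on genistein and 0.33 on the control diet, and without Rpl3 and Rpl3l it was 0.21 and 0.19. Different probe sets of a single gene differed by an SD of 0.36 and 0.35 over 2310 genes, which is larger than the spread among these 42 members. Those 2310 genes were of any brightness above the floor. Among genes with a mean of at least 10000 units, the SD was 0.26 and 0.22 for the 37 members, with Rpl3 among them. For the 228 other genes of that brightness it was 0.67 on both diets. Members above the floor with a pyrimidine run near their start (27) had medians of -0.23 and -0.21, and those without one (10) had -0.20 and -0.07. All 9362 genes above the floor had SDs of 0.72 and 0.73.

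Of the 44 members above the floor on all arrays, 13 belong to the small subunit. On genistein, 3 of the 5 lowest ratios were of small subunit proteins. On the control diet the 5 lowest were Rpl3l, Rps6, Rpl21, Rpl5 and Rpl35a, of which only Rps6 is of the small subunit. Rps29, a small zinc-binding protein, had 27062.4 units on the genistein denervated array and 37422.8 on the genistein sham array, and 33882.5 on the control denervated array and 41506.4 on the control sham array. Its ratios were -0.47 and -0.29. Rps6, the substrate of the S6 kinases, had 15615.8 units on the genistein denervated array and 20753.8 on the genistein sham array, and 17515.3 on the control denervated array and 22268.3 on the control sham array, with ratios of -0.41 and -0.35. Rps3, which lines the mRNA entry channel, had ratios of -0.41 on genistein and -0.33 on the control diet. For all of these both denervated arrays lay below both sham arrays in the deposited signals, and Rps29 and Rps6 changed sign under quantile normalization and under scaling on the hybridisation controls, as did Rps3 except on genistein with quantile normalization (-0.01). Rpsa, the laminin receptor protein of the small subunit, had ratios of -0.24 and -0.31, which also changed sign under both.

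Among large subunit members, Rpl5 and Rpl11 carry the 5S rRNA into the ribosome and, when unassembled, bind the p53 regulator Mdm2. Rpl5 had 17515.8 units on the genistein denervated array and 20693.0 on the genistein sham array, and 19619.7 on the control denervated array and 24912.6 on the control sham array. Both denervated arrays lay below both sham arrays. Its ratios were -0.24 and -0.34, and those of Rpl11 were -0.22 and -0.09. Rpl35a had ratios of -0.38 on genistein and -0.34 on the control diet, and Rpl21 had -0.12 and -0.34. Rplp0, which anchors the stalk where elongation factors bind and often serves as a reference gene, had 14897.5 units on the genistein denervated array and 16173.2 on the genistein sham array, and 15625.2 on the control denervated array and 17709.0 on the control sham array. Its ratios were -0.12 and -0.18, smaller in size than the members' median on both diets, and they were 0.38 and 0.25 under quantile normalization. Rpl13a had -0.29 and -0.17, Rpl7 had -0.20 on both diets, and Rpl22 had -0.19 and -0.08.

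Among the 44 members above the floor on all arrays, 5 had a higher signal after denervation on both diets, namely Rpl3, Rpl23, the paralogs Rps27l and Rpl7l1 and the pseudogene Rpl37-ps2. The dim Rpl28 was also higher on both, with 94.2 units on the genistein denervated array and 54.2 on the genistein sham array, and 102.5 on the control denervated array and 78.6 on the control sham array. Both its sham signals are under the floor, so its ratios are at least 1.19-fold and 1.30-fold higher. They rest on 1 dim probe set, so they may not reflect Rpl28 mRNA. Rpl37-ps2, a transcribed pseudogene in RefSeq, had 2571.3 units on the genistein denervated array and 1697.8 on the genistein sham array, and 3004.4 on the control denervated array and 1724.0 on the control sham array. Its ratios were 0.60 and 0.80, and whether its probes also bind the parent gene's mRNA was not tested. Rps27l, the paralog of Rps27 that p53 induces, had 840.7 units on the genistein denervated array and 623.7 on the genistein sham array, and 870.4 on the control denervated array and 794.1 on the control sham array, with ratios of 0.43 and 0.13. For both genes the denervated arrays lay above the sham arrays. Rpl7l1, a paralog of Rpl7, had ratios of 0.21 and 0.05, and -0.05 on the control diet under quantile normalization. Rpl23, another Mdm2-binding protein, had 17708.9 units on the genistein denervated array and 16776.3 on the genistein sham array, and 20662.3 on the control denervated array and 20289.2 on the control sham array, with ratios of 0.08 and 0.03. Its arrays overlapped between the legs, with both control diet arrays above both genistein arrays.

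**Figure D3:**
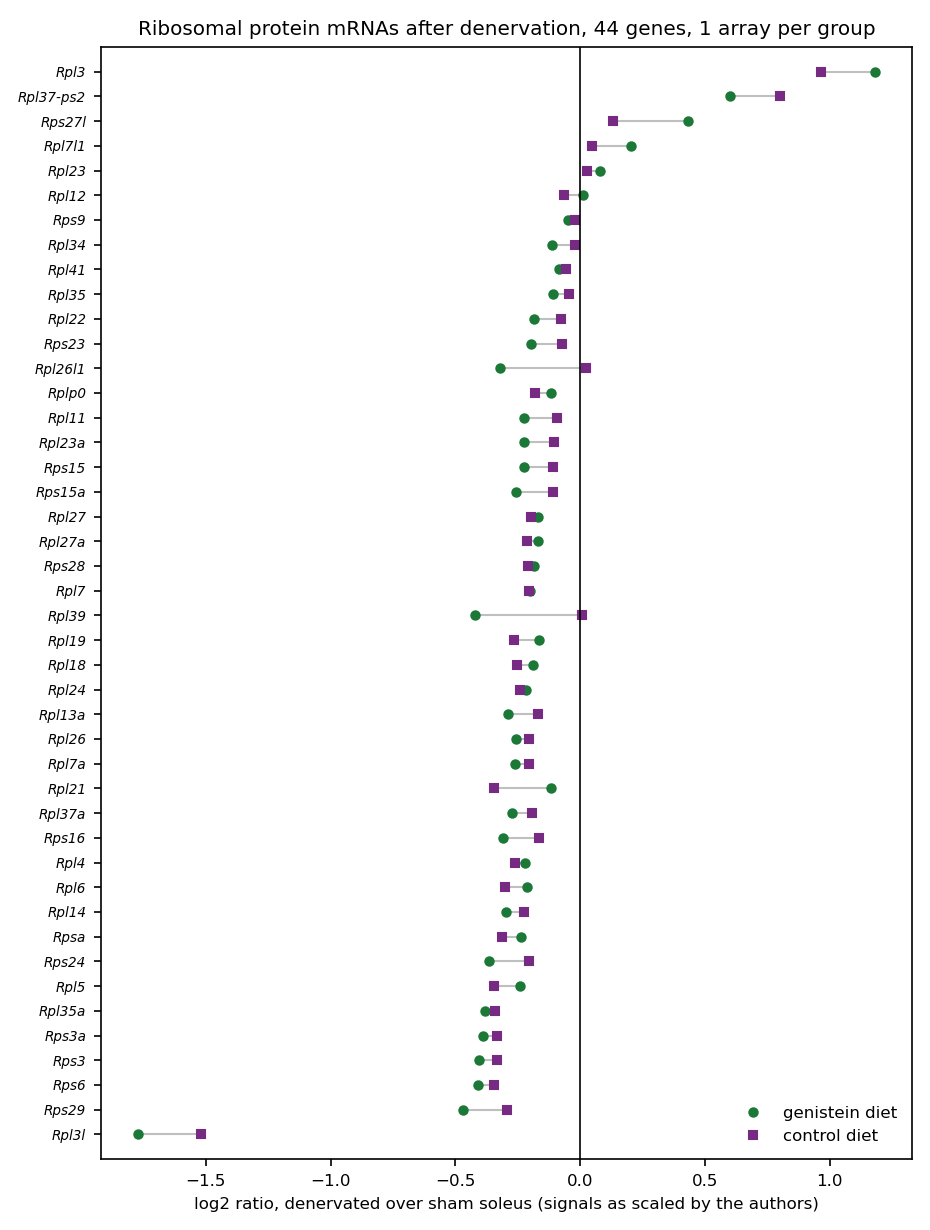
Log2 ratio of denervated over sham soleus for the 44 members above the floor on all 4 arrays, in the signals as deposited, with genistein diet as circles and control diet as squares joined by a line per gene. Rpl3 stands at the top (1.18 and 0.96), Rpl3l at the bottom (-1.77 and -1.52), and most of the others lie a little below 0.

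The orders of the members on the diets were partly alike. Of 44 members, 36 were lower and 5 higher after denervation on both diets, and 3 had opposite signs. Of all 9362 genes above the floor, 3487 were lower and 3976 higher on both diets, and 1895 had opposite signs. Pearson's r between the ratios on genistein and on the control diet was 0.93 and Spearman's rho 0.57, and without Rpl3 and Rpl3l they were 0.78 and 0.51 over 42 members. Over all 9362 genes r was 0.86 and rho 0.78, so the members' rho lay below that of all genes. These are correlations across genes, which are not independent replicates, and each diet contributes a single pair of arrays. The denervation ratio on genistein minus that on the control diet had a median of -0.05, with 28 members lower and 20 higher. Over all 11151 measured genes this median was -0.0037, with 5625 lower and 5524 higher.

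Genistein fed rats had slightly lower signals of most members than control fed rats in both legs, as deposited. In denervated soleus the median log2 ratio of genistein over control was -0.15 (0.902-fold), with 42 of 47 members lower where 49.9% of all genes were lower. In sham soleus it was -0.15 (0.902-fold), with 42 of 46 members lower where 49.5% of all genes were. At a fold of 1.2, 9 members were lower and 2 higher in denervated soleus, beside 12.5% and 20% of all genes, and 4 were lower and 2 higher in sham soleus, beside 12.9% and 14.6%. None reached 2-fold in either direction, beside 1.02% of all genes higher and 0.124% lower in denervated soleus, and 0.324% higher and 0.287% lower in sham soleus. Rpl3l had a ratio of -0.38 in denervated and -0.12 in sham soleus, and Rpl3 had 0.06 and -0.15. The 228 other genes of at least 10000 units had medians of -0.15 in denervated and -0.08 in sham soleus. With quantile normalization the members' median was -0.02 in denervated soleus, and with scaling on the hybridisation controls it was -0.01, with 24 and 26 of the members below 0. In sham soleus the median was -0.06 with quantile normalization and -0.14 on the controls, with 31 and 41 of 46 below 0. The members' median minus that of all genes in denervated soleus was -0.15 as deposited, -0.14 on the controls and -0.0007 with quantile normalization. In sham soleus this difference was -0.15, -0.15 and -0.05.

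**Figure D4:**
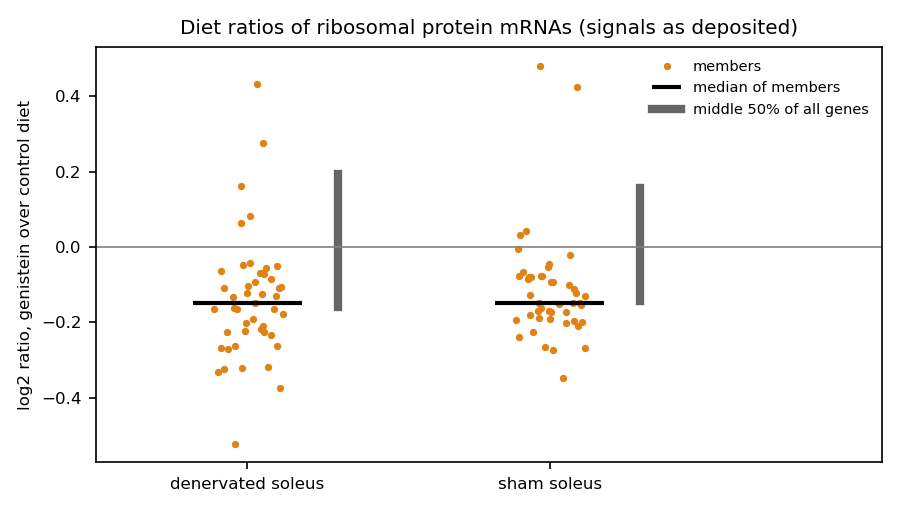
Log2 ratio of genistein over control diet in denervated and in sham soleus for each measured member (points), with the median of members as a black bar and the middle 50% of all measured genes as a grey bar. The members' medians are -0.15 in both legs, near the lower end of the grey bars.

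The 36 probe sets that carry several gene symbols had similar ratios in the deposited signals. Their median ratio of denervated over sham was -0.18 on genistein and -0.18 on the control diet. Of them, 33 and 29 were below 0, where 48.3% and 50.2% of all genes were. Their median ratio of genistein over control was -0.17 in denervated and -0.14 in sham soleus. Rack1, a ribosomal protein outside the symbol rule that docks signalling proteins on the small subunit, had -0.27 on genistein and -0.05 on the control diet for denervated over sham, and changed sign under both scalings that turned the members.

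Proteins of the mitochondrial ribosome, which translates mitochondrial mRNAs, had lower denervated over sham ratios than their cytosolic counterparts. Of 73 measured, 71 were lower on genistein and 60 on the control diet, where 48.3% and 50.2% of all genes were. The medians were -0.57 and -0.44, and 11 and 7 were at least 2-fold lower, where 6.57% and 7.63% of all genes were. Their medians stayed below 0 under all 4 scalings, at -0.08 and -0.07 with scaling on the hybridisation controls. Mrpl12, which also binds the mitochondrial RNA polymerase, had 2816.8 units on the genistein denervated array and 8150.8 on the genistein sham array, and 3037.5 on the control denervated array and 8335.1 on the control sham array, with ratios of -1.53 and -1.46. Mrpl40 had -1.32 on both diets, and Mrpl23 was on the other side with 0.22 and 0.33.

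Genes for making ribosomes had mostly higher signals. Of 61 ribosome biogenesis genes, 45 on genistein and 39 on the control diet were higher in denervated soleus, where 51.7% and 49.8% of all genes were. Their medians were 0.23 and 0.17 and stayed above 0 under all 4 scalings, though scaling on the controls can only raise them. Polr1e, a subunit of RNA polymerase I, had ratios of 1.203 and 1.002, and Riok1, a kinase of late small subunit assembly, had 0.63 and 1.002. Ncl, the nucleolar protein nucleolin, had 8536.7 units on the genistein denervated array and 5218.0 on the genistein sham array, and 9996.3 on the control denervated array and 6759.0 on the control sham array, with ratios of 0.71 and 0.56. Rrp8 was lower, with -0.54 and -0.69.

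Translation factors, taken by the start of their symbols, were mixed, with medians of 0.03 and 0.12 over 51 genes. This rule also took in Eef1akmt1, Eef1akmt2 and Eef1akmt4, genes of methylating enzymes rather than factors. Eif4e, the cap-binding protein, had 2431.3 units on the genistein denervated array and 4870.7 on the genistein sham array, and 2538.9 on the control denervated array and 4864.8 on the control sham array, with ratios of -1.002 and -0.94. Eif4a1, the helicase that works with it, had 0.60 and 0.50, and both genes kept these directions under all 4 scalings. Scaling on the controls raised the ratios and could have turned only that of Eif4e. The 12 other mRNAs known for a terminal oligopyrimidine tract had medians of 0.05 and 0.09 as deposited.

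Regulators of ribosome output had medians of 0.14 and 0.18 over 24 genes. The list pools genes that promote output with genes that restrain it, so its median gives no direction of output. Myc, a transcription factor that drives ribosome genes, had 420.8 units on the genistein denervated array and 145.5 on the genistein sham array, and 474.6 on the control denervated array and 140.0 on the control sham array, with ratios of 1.53 and 1.76. Its partner Max had 1.15 and 1.46. Eef2k, which slows elongation by phosphorylating its factor, had 0.94 and 1.64, Mdm2 had 0.90 and 0.86, and Rps6ka3, a kinase of the RSK family, had -0.58 and -0.53. These directions held under all 4 scalings, though scaling on the controls raised the ratios and could have turned only that of Rps6ka3.

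**Figure D5:**
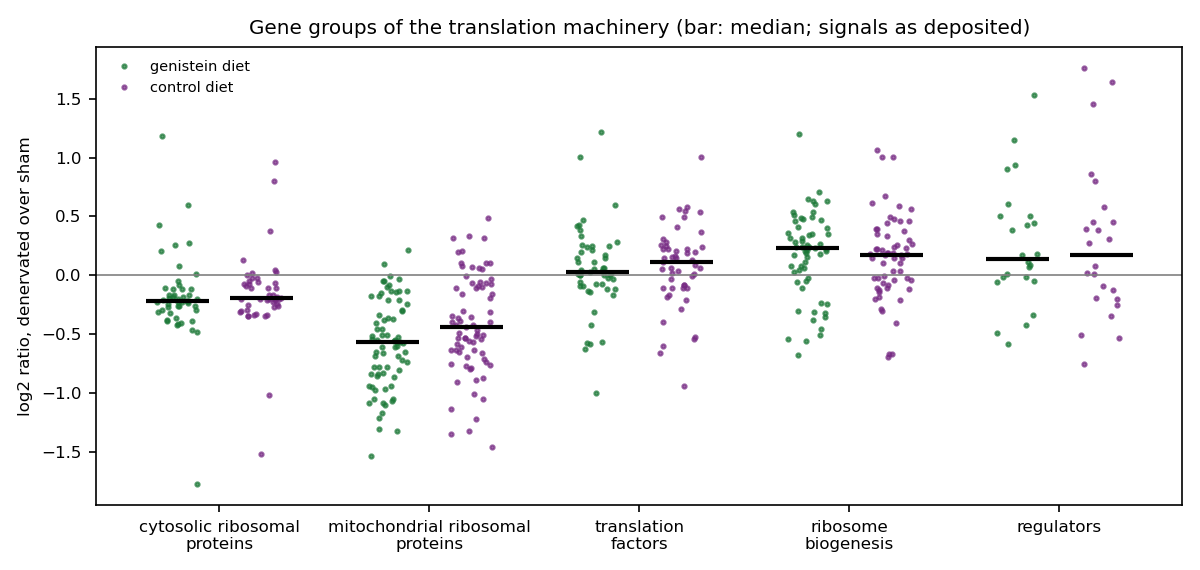
Log2 ratio of denervated over sham soleus for each measured gene of 5 groups of the translation machinery, in the signals as deposited, with genistein and control diet side by side and bars at the medians. Mitochondrial ribosomal proteins have the lowest medians (-0.57 and -0.44) while ribosome biogenesis genes (0.23 and 0.17) and regulators (0.14 and 0.18) have the highest. The regulators pool genes that promote ribosome output with genes that restrain it.

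The 10 listed soleus fibre markers were present on every array and lower after denervation on both diets in the deposited signals, with 8 of 10 lower under quantile normalization and 9 of 10 under scaling on the controls. Summed signals of 10 fibroblast and matrix markers were 43008.8 units on the genistein denervated array and 60230.2 on the genistein sham array, and 25557.6 on the control denervated array and 59426.8 on the control sham array. All 10 were higher in genistein than in control denervated soleus, as were all 9 measured leukocyte markers (median log2 ratio 0.80), all 5 adipocyte markers (1.06), all 3 Schwann cell markers (0.59) and 6 of 7 endothelial markers (0.54). All 3 erythrocyte markers were lower (-0.66), as were all 10 soleus fibre markers (-0.32). The 10 fibre markers were also lower on genistein than on the control diet in sham soleus (-0.15), in the deposited signals. Cd3e, Lep, Sox10 and Ngfr were under the floor on every array. The part of these cell types in the members' ratios was not tested. The 3′ to 5′ ratio of actin probes, a sign of RNA length, was 2.76 on the genistein denervated array and 2.32 on the genistein sham array, and 3.79 on the control denervated array and 2.08 on the control sham array. That of Gapdh probes ran the other way, with 1.131 on the genistein denervated array and 1.198 on the genistein sham array, and 1.143 on the control denervated array and 1.239 on the control sham array. The part of RNA length was not tested either.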

How the data were processed

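Pooled soleus RNA of 4 groups (8 rats each, 1 array per group) was turned into biotin-carrying aRNA and read on Affymetrix rat arrays, per the labels' protocols. The authors deposited a linear signal intensity for each probe set, made with GCOS 1.1 per the submitters' processing notes. Each array's trimmed mean (2% cut from each end) lay near 497 units, so arrays share a global scale, and their number limits the precision.

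Values below the 40th percentile (78.9 units) were raised to it, 57 control rows were set aside, and log2 ratios were taken with Python 3.11.15, numpy 2.4.6 and pandas 2.3.3. Each gene was read from its probe set with the highest mean, and a gene counted as measured with at least 1 of the 2 arrays above the floor. Of 31042 probe sets, 20826 carry 1 gene symbol, 436 several and 9780 none in the platform annotation. Of the 50 members, 48 matched RefSeq. Calls use folds of 1.2 and 2, with no test. Calls were checked on simulated data. That check covered the 2-fold calls and not those at 1.2-fold. Named members are those past 2-fold, the 5 highest and 5 lowest ratios per diet, a list of well known members, and, for each other gene list, some of its 3 highest and lowest. Members and lists were chosen with earlier results of these data known. Alternatives covered the scaling, the floor, the choice of probe sets and the membership.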

Additional observations from a re-analysis of the deposited data

Results flagged for a closer look

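Of the 44 members above the floor on all arrays, 3 had opposite signs on the diets, and no difference was tested because each diet has 1 pair of arrays. Rpl12 had a denervated over sham log2 ratio of 0.013 on genistein and -0.065 on the control diet. Rpl26l1, a dim paralog, had -0.32 on genistein and 0.023 on the control diet. Rpl39, a small protein of the exit tunnel, had 429.9 units on the genistein denervated array and 576.0 on the genistein sham array, and 617.3 on the control denervated array and 614.9 on the control sham array, with ratios of -0.42 and 0.0056.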

How the results depend on the processing

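Of the values recomputed under each alternative, 322 stayed close, 72 moved and 19 changed sign, and the cause was not tested. Sign changes came from quantile normalization (10) and from scaling on the hybridisation controls (9). Quantile normalization turned the members' denervated over sham median to 0.28 on genistein and 0.24 on the control diet and the difference between the diets to 0.046, with Rps29 at 0.16 and 0.22, Rps6 at 0.12 and 0.082, Rpl5 at 0.30 and 0.13, and Rpl7l1 at -0.049 on the control diet. Scaling on the hybridisation controls gave medians of 0.26 and 0.17 and a difference of 0.062, with Rps29 at 0.015 and 0.073, Rps6 at 0.072 and 0.020, and Rpl5 at 0.24 and 0.022. The median of genistein over control in denervated soleus was -0.28 with median scaling, -0.022 with quantile normalization and -0.012 on the controls, and the difference between the diets was -0.17 with median scaling. Members at least 1.2-fold higher after denervation on genistein numbered 27 with quantile normalization, 24 on the controls and 2 without paralogs and pseudogenes. Those lower numbered 5 with quantile normalization, 2 on the controls and 27 with the probe sets of several genes added, an alternative chosen after seeing the data. On the control diet those higher numbered 21 with quantile normalization, 16 on the controls, and 5 both without a floor and with the added probe sets, and those lower numbered 2 with median scaling, quantile normalization and the controls, and 26 with the added probe sets. At 2-fold on genistein, 2 were higher on the controls and 0 with the mean of probe sets, and 3 were lower without a floor and 0 without suffixed probe sets, which drops Rpl3l, or without paralogs. At 2-fold on the control diet, 1 was higher with median scaling or quantile normalization and 2 without a floor or on the controls, and 1 was lower with the 60th percentile floor, on the controls, without suffixed probe sets or without paralogs, an alternative that goes by symbol and keeps Rps4y2. For genistein over control at a fold of 1.2, those higher in denervated soleus numbered 0 with the 60th percentile floor and 1 with median scaling, and those lower 26 with median scaling, 2 with quantile normalization and 1 on the controls. In sham soleus those higher numbered 0 with the 60th percentile floor or without paralogs and 4 without a floor or with the added probe sets, and those lower 1 with quantile normalization or on the controls and 7 with the added probe sets. Without a floor, 1 member was 2-fold higher and 1 lower in denervated soleus, and 2 were higher in sham soleus. The spread among members was 0.60 without a floor and 0.21 without paralogs for denervation on the control diet, 0.30 without a floor for diet in denervated soleus, and 0.60 without a floor and 0.076 without paralogs for diet in sham soleus. With the added probe sets the members' share of signal was 4.93% on the genistein denervated array and 5.15% on the genistein sham array, and 5.38% on the control denervated array and 5.55% on the control sham array. No paired analysis was possible because each group has 1 pooled array, and for the same reason no replicate could be left out.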

Other observations

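The elongation factor eEF1A, which brings charged tRNAs to the ribosome, comes in isoforms whose ratios differed in direction in the deposited signals. Eef1a1, the widely expressed isoform, had 21378.9 units on the genistein denervated array and 16943.2 on the genistein sham array, and 23023.5 on the control denervated array and 19249.5 on the control sham array, with log2 ratios of 0.34 and 0.26. Eef1a2, the isoform of adult muscle and neurons, had 1229.3 units on the genistein denervated array and 1648.9 on the genistein sham array, and 1274.1 on the control denervated array and 1930.9 on the control sham array, with ratios of -0.42 and -0.60, and 0.059 on genistein with scaling on the hybridisation controls. As with Rpl3 and Rpl3l, the widely expressed gene was higher and the muscle gene lower in denervated soleus on both diets as deposited. This pair was chosen after its values were seen. Genes that methylate eEF1A, Eef1akmt1 and Eef1akmt2, had ratios of 1.003 and 1.21 on genistein and of 1.004 and 0.58 on the control diet.

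Probe sets of Rps24, a small subunit protein, differed in direction. The brighter gave -0.36 on genistein and -0.20 on the control diet, and the dimmer gave 0.048 and 0.26.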
